A study of Mus musculus with 48 samples.

Results

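Late nuclear RNA was compared between 120 and 240 min of flavopiridol in mouse embryonic stem cells, using the 3 nuclear libraries of each time, 6 of the 48 libraries of the series. Every gene listed in all 6 libraries was taken, which gave 14239 of the 23862 genes listed anywhere in the series. For each gene the log2 ratio to 0 min at 240 min was set against that at 120 min, so that a difference below 0 is a late loss and a difference above 0 a late rise.

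The cells were E14TG2a, a line of mouse embryonic stem cells grown in 2i + LIF medium, and both groups received 1 µM flavopiridol, an inhibitor of the kinase through which paused RNA polymerase II enters elongation. Per the labels, 3 independently passaged cultures were treated. Each culture was opened with digitonin to release the cytosol and then with NP-40 to release the membrane fraction, and the remaining nuclear pellet gave the polyadenylated RNA described here. Values are quotients of a gene's level over that at 0 min, made per fraction after the authors had scaled libraries on genes with half-lives above 14 h. A ratio of 1 is therefore no change relative to those genes, and neither the amount of RNA per cell nor the number of nuclei can be told apart from it. Sample titles give the last time as 240 min, which is used below, whereas the protocol gives 180 min.

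In the nucleus a polyadenylated transcript is spliced, released from chromatin and then either exported or degraded, so its nuclear level after a block of transcription reflects both routes of exit. Polymerases that are already elongating when release is blocked can still finish their genes, and a long gene takes longer to finish than a short one. Transcripts of immediate early genes and of many regulators are known for short lives, and those of ribosomal proteins and metabolic enzymes for long ones.

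Read depth is unknown, since no counts are given, so values that rest on a few reads cannot be marked. The nuclear libraries listed between 17339 and 18185 genes. The pluripotency factors Pou5f1, Sox2 and Nanog were listed in all 6, but ratios carry no level, so cell identity could be checked by listing alone. Of the markers of other states, 6 of the 2-cell-like state, 7 of trophoblast, 4 of primitive endoderm, 4 of fibroblast feeders and 7 of early epiblast and neural cells were tested. They numbered 2, 3, 1, 0 and 1 falls and no rise in that order, with median differences of -0.42, -0.91, -0.35, -0.76 and -0.37 on the log2 scale. The 7 mitochondrially encoded mRNAs that were tested, a sign of organelles carried into the nuclear pellet, had median ratios of 2.58, 1.41 and 1.24 in the 120 min libraries and 0.98, 0.71 and 0.67 in the 240 min libraries, so replicate 1 at 120 min stood above the rest.

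Most nuclear transcripts went on falling after 120 min, a small group rose, and a larger group kept its level. The median ratio over the 14239 genes was 0.535, 0.514 and 0.473 in the 3 libraries at 120 min and 0.380, 0.364 and 0.334 at 240 min. All 3 late libraries lay below all 3 earlier ones. On the log2 scale the library medians averaged -0.98 ± 0.09 (SD, n = 3) and -1.48 ± 0.09 (SD, n = 3), a difference of -0.50, for which the exact permutation test gave p = 0.10 (two-sided), the smallest that 3 against 3 libraries allow. The median gene kept 71.5% of its 120 min level at 240 min. Read as one exponential decline, the difference of the median gene corresponds to a half-life of 248 min, with 182 to 413 min over the 9 pairs of an early and a late library, and of 124 min if the last harvest was at 180 min.

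By limma's moderated test with Benjamini-Hochberg adjustment at 0.05, 5161 genes fell, which is 36.2% of those tested, and 475 rose, which is 3.34%. A further 1247 genes, 8.76%, held their level, meaning that the 95% interval of the log2 difference lay wholly within 0.5 of 0, and 7356 were neither called nor held. Of all differences 77.5% lay below 0, and the 10th and 90th percentiles were -1.62 and 0.37. Falls exceeded 1 on the log2 scale in 2994 genes and 2 in 712 genes, whereas 243 genes rose by more than 1. The direction rests on which genes the libraries are scaled to. Centring all libraries on their median genes, which sets each library median to 0, moved the median difference from -0.48 to 0.01. The calls were then 2282 falls and 2180 rises. Scaled to the mitochondrially encoded mRNAs the median was 0.61, with 349 falls and 2440 rises. Scaled to cytosolic ribosomal protein genes it was -0.47, with 5105 falls and 482 rises. With replicate 2 left out of both times limma made 0 calls, although 4692 genes lay below and 551 above 0 at an unadjusted p under 0.05, and without replicate 1 or 3 it called 2479 and 2381 falls with 239 and 195 rises, while without the 240 min library of replicate 1 or 2 there were 311 and 293 rises.

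**Figure D1:**
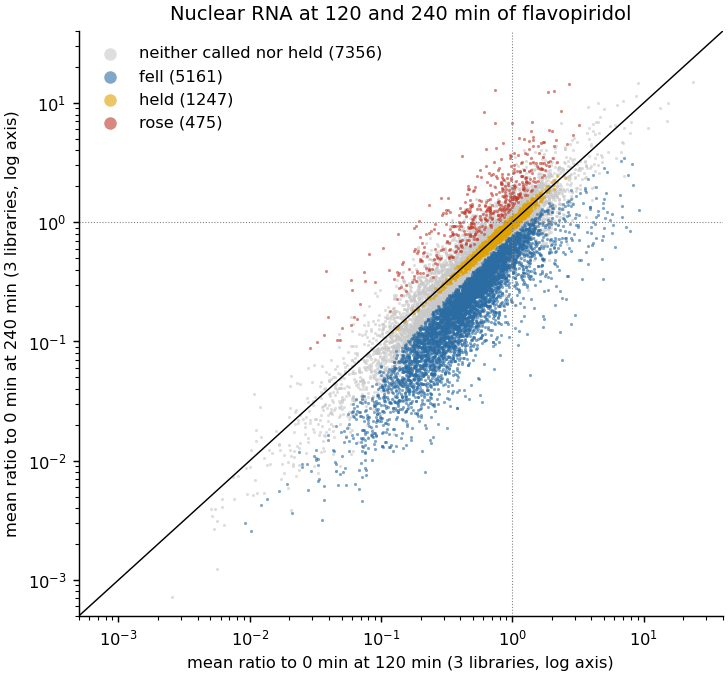
Mean ratio to 0 min of each of the 14239 genes at 120 min (x axis, log scale) and 240 min (y axis, log scale), each the mean of 3 nuclear libraries, coloured by call. The line marks equal levels and the dotted lines a ratio of 1. The 5161 genes that fell lie below the line, the 475 that rose above it and the 1247 that held along it, and after centring each library on its median gene there were 2282 falls and 2180 rises.

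The 3 classes stood at different levels before the interval began. The genes that fell had library medians of 0.430 to 0.477 at 120 min and of 0.193 to 0.218 at 240 min, and 1008 of them, 19.5%, ended below 0.1 in all 3 late libraries. The genes that held had medians of 0.804 to 0.856 and then of 0.781 to 0.834. The genes that rose had 0.580 to 0.659 at 120 min and 1.27 to 1.34 at 240 min. Of these 475, 271 (57.1%) ended above the 0 min level in all 3 late libraries. Among these 271, 103 had been below it in all 3 libraries at 120 min. Another 133 of the 475 were below it in all 3 libraries at 240 min. Genes also left the files, which list no gene at 0. Of the genes listed in all 3 libraries at 120 min, 195 were listed in none at 240 min, against 72 the other way.

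The other fractions are set beside the nucleus without a test. From 120 to 240 min the cytosol had a median difference of -0.48 with 5213 falls and 332 rises among 12507 genes, the membrane fraction -0.36 with 3445 and 322 among 12953, and the total extract -0.23 with 2537 and 511 among 13416. The nuclear genes that fell had a median cytosolic difference of -0.99 and those that rose one of 0.40.

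Long genes behaved unlike short ones late in the nucleus. The genomic span, from first to last base of a gene in the GENCODE vM21 annotation, was taken for the 10326 protein-coding genes tested. The 2574 genes under 10 kb had a median difference of -0.55, with 37.5% falling and 2.49% rising. The 351 genes of 200 to 400 kb had -0.18, with 24.5% falling and 11.1% rising, and the 131 genes over 400 kb had 0.28, with 9.92% falling and 19.1% rising. The classes between, of 10 to 30, 30 to 100 and 100 to 200 kb, lay at -0.45, -0.50 and -0.49. After centring each library on its median gene, the medians from the shortest to the longest class were -0.05, 0.04, -0.0075, 0.0043, 0.32 and 0.78, so only the classes under 10 kb and of 30 to 100 kb stayed below 0 there, and scaled to mitochondrially encoded mRNAs all 6 were above 0, from 0.54 to 1.37.

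The separation by span had begun before 120 min and widened after it. Among genes listed in all 12 nuclear libraries, the 114 genes over 400 kb had library medians of 0.14, 0.22 and -0.12 at 120 min and of 0.42, 0.26 and 0.14 at 240 min, log2 to 0 min. The 2447 genes under 10 kb had -1.35, -1.37 and -1.48 and then -1.96, -2.0 and -2.15. The gap between both classes within a library, which no scaling of libraries can change, went from 1.48 ± 0.12 (SD, n = 3) to 2.31 ± 0.07 (SD, n = 3). The 3 gaps at 240 min all exceeded the 3 at 120 min, a difference of 0.83 with an exact permutation p = 0.10 (two-sided), again the smallest possible. The mean level peaked at 240 min among the 4 times in 52.6% of the genes over 400 kb, at 120 min in 28.7% and at 240 min in 29.0% of those of 200 to 400 kb, and at 30 min in 78.1% of those under 10 kb. These shares use the 30 min libraries, which differ in level. Over the genes listed in all 6 compared libraries, their median ratios were 0.591, 0.948 and 0.822. At 240 min 46.6% of the genes over 400 kb and 5.56% of those under 10 kb stood above the 0 min level in all 3 libraries. Genes over 200 kb made up 18.4% of the protein-coding genes that rose, 2.43% of those that fell and 4.67% of all. In the cytosol the median differences of the shortest and longest class were -0.46 and -0.00047, and in the total extract -0.22 and 0.40.

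**Figure D2:**
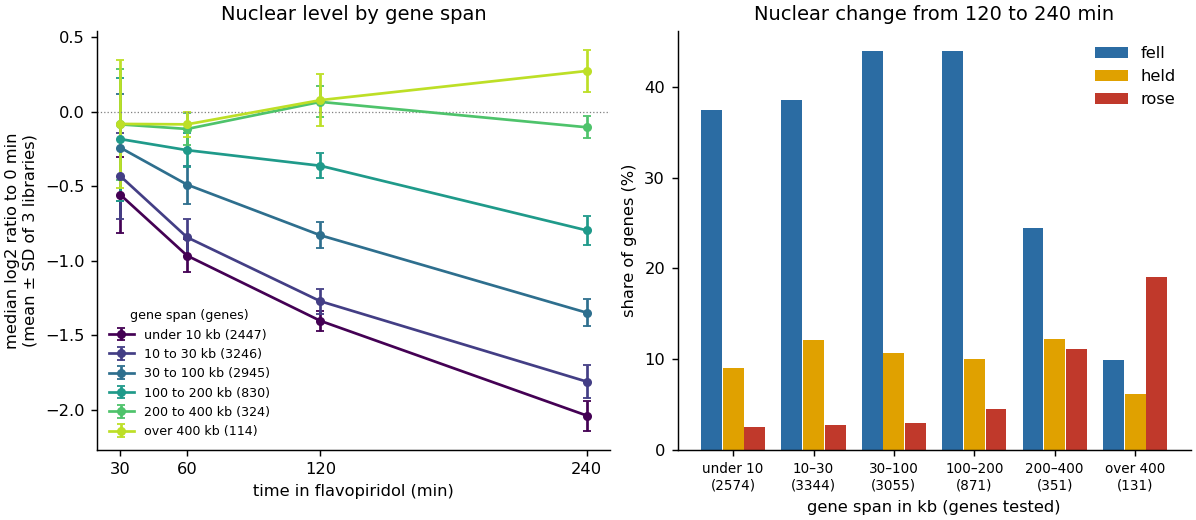
Left, nuclear level over time in flavopiridol (min) for 6 classes of gene span, as the median log2 ratio to 0 min (points, mean of 3 library medians; bars, SD), over protein-coding genes listed in all 12 nuclear libraries. Right, share of genes in each class that fell, held or rose from 120 to 240 min. The genes over 400 kb ended at 0.27 and those under 10 kb at -2.04, and the share that rose went from 2.49% to 19.1%. The gap between classes is the same under every scaling of libraries, but the shares are not.

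Single long genes, chosen after their values were seen, show the course. Kif26b (chr1:178529125-178939200, GRCm38, 410 kb), which encodes a kinesin-like protein, had ratios of 0.703, 0.156 and 0.533 at 60 min, of 3.11, 2.55 and 2.46 at 120 min and of 14.9, 15.0 and 13.3 at 240 min. Each step lifted all 3 libraries above those before, and the late difference was 2.42 ± 0.26 (SE, adjusted p = 0.0031). Zbtb20 (chr16:42875881-43642602, 767 kb), a zinc finger repressor, had 2.05, 2.38 and 1.99 at 120 min and 4.46, 4.85 and 5.36 at 240 min, a difference of 1.19 ± 0.18 (adjusted p = 0.0049). Prkca, the alpha isoform of protein kinase C (411 kb), had 1.61, 1.03 and 1.71 and then 4.56, 5.19 and 4.91, a difference of 1.78 ± 0.24 (adjusted p = 0.0039). Nav3, a neuron navigator gene of 775 kb, differed by 1.04 ± 0.24 (adjusted p = 0.017), with no overlap between the times. Long genes did not all rise: Mast4, a kinase gene of 602 kb, had 1.03, 0.898 and 0.681 at 120 min and 0.122, 0.219 and 0.215 at 240 min and fell by 2.26 (adjusted p = 0.0037).

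The 12 largest late rises were taken among called genes with groups apart that were listed in all 12 nuclear libraries and bear a symbol other than that of a predicted gene, clone or pseudogene, and the 12 largest falls in the same way. Kif26b, not listed in 1 of the libraries at 30 min, is therefore not among them. Of the 12 rises only Trib1, Tcte1 and Gpr157 were also listed in all 48 libraries of the series. Falls not listed in all 48 included Gjb5, Kcnk6, Ccdc71l, Pds5b and Lrr1. Ttn (chr2:76703980-76982547, 279 kb), which encodes the sarcomere protein titin, had ratios of 0.276, 1.68 and 0.254 at 120 min and 14.4, 11.5 and 12.4 at 240 min. Its late libraries stood well apart from the earlier ones, of which replicate 2 was the highest, and the difference was 4.70 ± 0.74 (SE, adjusted p = 0.0056). Cacna1c (chr6:118587240-119196418, 609 kb), the pore subunit of an L-type calcium channel, had 0.859, 2.61 and 0.792 and then 8.55, 5.42 and 6.87, a difference of 2.49 ± 0.50 (adjusted p = 0.011).

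Other genes of these 12 were shorter, and some, such as Rasl11b and Trib1, rose from a low level. Rasl11b (4.2 kb), a small GTPase of the Ras family, had 0.0256, 0.0648 and 0.0236 at 120 min and 0.477, 0.380 and 0.316 at 240 min, a difference of 3.51 ± 0.44 (adjusted p = 0.0036). Trib1 (8.75 kb), a pseudokinase that scaffolds a ubiquitin ligase, had 0.0816, 0.0526 and 0.0444 and then 0.329, 0.355 and 0.302. It rose by 2.51 (adjusted p = 0.0031), the groups did not overlap, and all 3 late values were still below the 0 min level. Tnnc2, fast skeletal troponin C, rose by 2.30 (adjusted p = 0.0029) from 0.362, 0.367 and 0.250 to 1.72, 1.34 and 1.71, and Hoxc11, a homeobox gene, by 2.21 (adjusted p = 0.0071) from 1.10, 0.638 and 0.435 to 4.17, 3.04 and 2.40. The remaining 6, Cyp2c55, Ccdc24, Idi2, Tmem220, Tcte1 and Gpr157, rose by 2.30 to 2.76. Cyp2c55 and Idi2 belong to families of similar copies, and reads shared among copies cannot be told apart here. At 120 min Idi2 had 0.236, 0.239 and 0.217 and Tmem220 had 0.106, 0.108 and 0.0981, in the same proportions between libraries. Equal and very small read counts in each library would give such values, which was not tested. The sizes of these rises may therefore rest on a few reads at 120 min.

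Of the 12 largest falls by that rule, 10 were of genes that stood below their 0 min level in all 3 libraries at 120 min. Gjb5 (chr4:127354809-127358181), a gap junction connexin, had 0.373, 0.135 and 0.140 at 120 min and 0.00524, 0.0141 and 0.00459 at 240 min, a difference of -4.78 ± 0.61 (SE, adjusted p = 0.0037). Kcnk6, a potassium channel gene, differed by -4.47 and Hps6, a subunit of a complex that forms lysosome-related organelles, by -4.27. Xbp1 (chr11:5520659-5525893), the transcription factor of the unfolded protein response that is made active by splicing in the cytosol, had 0.319, 0.230 and 0.197 and then 0.0152, 0.0187 and 0.0139, a difference of -3.95 ± 0.28 (adjusted p = 0.0029). Its groups lay far apart. Pds5b, a cohesin regulator of 137 kb, was still above its 0 min level at 120 min, with 2.07, 1.60 and 1.45, and had 0.0733, 0.223 and 0.103 at 240 min, a difference of -3.83 ± 0.42 (adjusted p = 0.0031). Others of them, Cacng4, Ccdc71l, Six5, Ppcs, Tnfrsf1a and Lrr1, had differences of -4.17 to -3.58. Nf1 and Tfrc, examples used in the study, also fell, Nf1 by 0.64 (adjusted p = 0.015) from 2.00, 1.96 and 1.66 to 1.26, 1.26 and 1.09 and Tfrc, the transferrin receptor, by 1.09 (adjusted p = 0.0053) from 0.355, 0.284 and 0.294 to 0.158, 0.140 and 0.139.

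**Figure D3:**
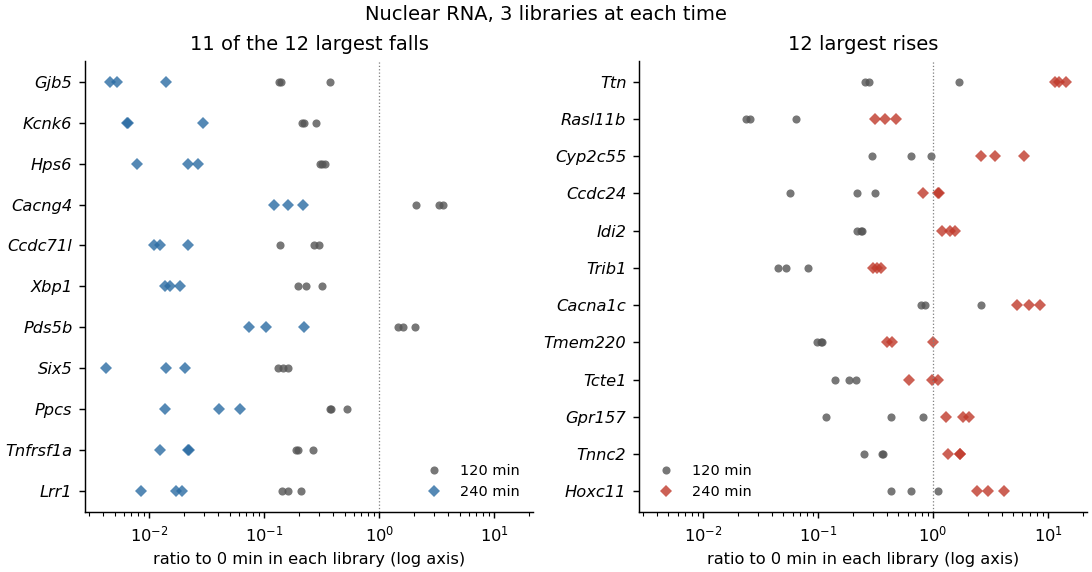
Ratio to 0 min (log axis) of 11 of the 12 largest falls (left) and the 12 largest rises (right) among called genes listed in all 12 nuclear libraries, predicted genes left out, in each of the 3 nuclear libraries at 120 min (circles) and 240 min (diamonds). The dotted line is the 0 min level. No gene's late values overlap its earlier ones, as the rule for these genes required, and of the falls Cacng4 and Pds5b alone were above the 0 min level at 120 min.

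Groups of genes with a shared function differed in how much nuclear RNA they lost. Over all genes 36.2% fell, 3.34% rose and 8.76% held. All 36 list medians lay below 0, but 16 lay above 0 after centring and 34 when scaled to mitochondrially encoded mRNAs, so the lists are read against the median of all genes, -0.48. The lowest medians were those of immediate early genes and of cholesterol genes, which stayed below 0 under both of those scalings.

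Immediate early genes encode short-lived regulators induced within minutes of a stimulus. Of the 34 listed in the series, 19 were tested, and the others, Fos and Dusp1 among them, were not listed in all 6 libraries. Of the 19, 12 fell, 1 rose and 0 held, with a median of -1.45. Btg2 (chr1:134075170-134079120), an antiproliferative cofactor of mRNA deadenylation, had 0.368, 0.309 and 0.320 at 120 min and 0.0447, 0.0495 and 0.0425 at 240 min. The groups did not overlap, and Btg2 fell by 2.86 (adjusted p = 0.0029). Jund, an AP-1 subunit next to the list's median, fell by 1.45 (adjusted p = 0.0078). Fosl2, another AP-1 subunit, rose by 1.22 ± 0.35 (adjusted p = 0.038) from 0.254, 0.129 and 0.234 to 0.632, 0.330 and 0.461. The cytosolic median of the list was -1.57.

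An AU-rich stretch in the 3′ UTR is a known mark of unstable mRNAs, and the letters TATTTAT, searched on the transcribed strand, were present in the annotated 3′ UTR of 27.3% of the 10326 protein-coding genes, of 9 of the 19 immediate early genes and of 5 of the 12 that fell. To show where the letters lie, windows of 29 bases from GENCODE vM21 transcripts are given for 4 of these 5, with the matched letters in capitals, from chr1:134077249-134077277 (minus strand), chr6:67035137-67035165 (minus strand), chr8:70700359-70700387 (plus strand) and chr15:38294920-38294948 (minus strand) of GRCm38.
Btg2: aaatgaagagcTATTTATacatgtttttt
Gadd45a: atgtgaaaggtTATTTATgataaagtttt
Jund: cgattccgcccTATTTATgtttctactcg
Klf10: cagtgtcttttTATTTATaggagtttttc
Gadd45a, a stress-induced growth arrest gene, fell by 2.23 (adjusted p = 0.0235) and Klf10, a zinc finger factor, by 1.36 (adjusted p = 0.030). Over all protein-coding genes the median difference was -0.57 with the letters and -0.45 without. Longer 3′ UTRs hold them more often, and within 5 equal groups by 3′ UTR length the medians with and without them were -0.48 and -0.35 in the shortest group and -0.58 and -0.51 in the longest, with the genes that held them lower in each of the 5. Fosl2, the immediate early gene that rose, has 3 matches in its 3′ UTR, whereas the genes shown above have 1 each. A match is a string of letters and no sign of a factor bound there.

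Of 27 genes for cholesterol synthesis and uptake, 22 fell, 0 rose and 1 held, with a median of -1.39. Msmo1, a demethylase of the sterol pathway, had 0.580, 0.421 and 0.390 at 120 min and 0.0663, 0.0599 and 0.0628 at 240 min, a fall by 2.86 (adjusted p = 0.0029). Its late values lay far below its earlier ones. Npc1, a lysosomal cholesterol exporter next to the list's median, fell by 1.39 (adjusted p = 0.0084).

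Endoplasmic reticulum chaperones and genes of the unfolded protein response followed, with 19 of 26 falling, 0 rising and a median of -1.05. Below Xbp1, described above, stood Calr, a calcium-binding chaperone of the reticulum, with 0.922, 0.613 and 0.700 at 120 min and 0.400, 0.357 and 0.298 at 240 min. It fell by 1.07 (adjusted p = 0.0092), and its cytosolic difference was -0.23 (adjusted p = 0.065). Ddit3, the stress factor CHOP, was the list's highest at 0.28 ± 0.25 (adjusted p = 0.42). Of p53 and its targets 20 of 27 fell, 0 rose and the median was -0.94. Btg2 is the lowest of that list too, Plk3, a polo-like kinase, lies at its median (-0.94 ± 0.41, adjusted p = 0.12) and Aen, an apoptosis-enhancing nuclease, is its highest at 0.17 ± 0.16 (adjusted p = 0.43).

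Genes for the steps that the drug and the fractionation touch are set beside the 36.2% of all genes that fell. Of 26 genes of P-TEFb, the kinase that flavopiridol inhibits, and of elongation control, 17 fell and 0 rose, with a median of -0.78. Mepce, which caps the 7SK RNA that holds P-TEFb inactive, had 0.0810, 0.0710 and 0.0740 at 120 min and 0.00847, 0.00866 and 0.00901 at 240 min. It fell by 3.11 (adjusted p = 0.0029) with a narrow spread at both times. Hexim1, the protein inhibitor of P-TEFb, fell by 2.44 (adjusted p = 0.0029) from 0.352, 0.301 and 0.291 to 0.0622, 0.0547 and 0.0569. Of 30 CLK kinases and SR or Tra2 splicing regulators 21 fell and 4 held, with a median of -0.73. Of 25 mRNA export factors 12 fell and 5 held, with a median of -0.42, and Nxf1, the main export receptor, fell by 2.87 (adjusted p = 0.0029) from 0.202, 0.171 and 0.174 to 0.0246, 0.0228 and 0.0274. Of 20 nuclear RNA decay and retention factors 9 fell, with a median of -0.43. The counts of the export and decay lists are near the background, and their medians were above 0 after centring. Of 22 polycomb genes 14 fell, with a median of -0.71.

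Of 23 pluripotency factors 9 fell, 0 rose and 5 held, with a median of -0.60, a share of falls near the 36.2% of all genes. Single members differed widely. Utf1, a chromatin factor of embryonic stem cells, had 0.332, 0.460 and 0.455 at 120 min and 0.113, 0.0998 and 0.0683 at 240 min and fell by 2.16 (adjusted p = 0.0034). Sox2 fell by 1.62 (adjusted p = 0.00895), Nanog by 1.06 (adjusted p = 0.0089) and Lin28a, an RNA-binding factor, by 0.60 (adjusted p = 0.020). Pou5f1, which encodes OCT4, had 1.12, 1.36 and 1.20 and then 1.24, 1.15 and 1.11 and was held, with overlapping groups, as was Dppa2 (1.12, 1.03 and 1.10, then 1.21, 1.23 and 1.09). Among the Sox, Klf, Fox, Gata and Pou genes as a whole 22 of 45 fell and 2 rose, with a median of -1.0, and of 260 numbered Zfp zinc finger genes 124 fell and 4 rose, with a median of -0.78.

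Lists of translation, respiration and protein turnover had many held members, though they make up a small share of the 1247 held genes. Against a background of 8.76%, 26 of 68 cytosolic ribosomal protein genes held, as did 27 of 78 nuclear-encoded respiratory chain genes, 17 of 34 proteasome subunit genes and 17 of 49 translation initiation factor genes. Their medians were -0.03, -0.18, -0.11 and -0.22, and after centring each of them was above 0, at 0.47, 0.31, 0.38 and 0.27. How many of them served as reference genes in the scaling was not tested. A held call needs a narrow interval, so genes measured with little spread qualify more readily than others. Of the 1247 held genes 1241 were also tested in the cytosol, against 5592 of the 7356 neither called nor held. The shares held were not compared at equal precision. Ribosomal protein genes ranged from Rpl35a, with 0.0686, 0.0695 and 0.126 at 120 min and 0.0142, 0.0636 and 0.0125 at 240 min (-1.91 ± 0.69, adjusted p = 0.072), to Rpl21, which rose by 1.39 ± 0.19 (adjusted p = 0.0041) from 0.314, 0.329 and 0.430 to 1.12, 0.790 and 0.899. Both have processed pseudogenes, and reads shared with these cannot be told apart here. Mitochondrial ribosomal protein genes, by contrast, had a median of -0.47, 0.03 after centring, with 29 of 65 falling and 15 holding.

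Aminoacyl-tRNA synthetases charge tRNAs with amino acids. Of 30 of their genes, 6 fell, 8 rose and 5 held, beside 36.2% falling, 3.34% rising and 8.76% holding over all genes. Their median was -0.09, which became 0.40 after centring. The 6 that fell, Yars2, Mars2, Nars2, Cars2, Aars2 and Ears2, all encode mitochondrial enzymes, and 7 of the 8 that rose, Lars, Eprs, Tars, Aars, Yars, Nars and Sars, encode cytosolic ones. Tars2, the remaining gene that rose, encodes the mitochondrial threonine enzyme. This division was seen after the calls were known, covers called genes alone and was not tested. Sars rose by 1.46 ± 0.26 (adjusted p = 0.0083) from 0.128, 0.0977 and 0.178 to 0.426, 0.334 and 0.327, Nars by 0.79 ± 0.12 (adjusted p = 0.0057) from 1.20, 1.40 and 1.22 to 2.19, 2.25 and 2.18, and Yars by 0.77 ± 0.13 (adjusted p = 0.0065). All 3 also rose in the cytosol, by 1.37, 0.50 and 0.70 (adjusted p = 0.0097, 0.0058 and 0.0025). Yars2 fell by 1.84 (adjusted p = 0.017) from 0.175, 0.117 and 0.161 to 0.0735, 0.0270 and 0.0363.

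Of 29 named long noncoding RNAs 12 fell, near the 36.2% of all genes, 1 rose and 3 held. Their median was -0.91 in the nucleus and, over the 26 tested there, -0.42 in the cytosol. The test of nucleus against cytosol described below called 0 of them. Kcnq1ot1, the antisense RNA of an imprinted domain, had 0.445, 0.411 and 0.299 at 120 min and 0.0962, 0.0902 and 0.113 at 240 min and fell by 1.93 (adjusted p = 0.0031). Neat1, the scaffold of paraspeckles, fell by 1.00 (adjusted p = 0.0040), and Mirg, a microRNA host, by 2.29 (adjusted p = 0.022). Malat1, an RNA of nuclear speckles, stood at 0.130, 0.149 and 0.0887 and then at 0.0642, 0.0691 and 0.0945, which overlap (-0.68 ± 0.29, adjusted p = 0.11), and Ftx, of the X inactivation centre, at -0.91 ± 0.30 (adjusted p = 0.057). Trp53cor1, known as lincRNA-p21, rose by 1.06 ± 0.27 (adjusted p = 0.024) from 0.621, 0.840 and 0.451 to 1.3, 1.05 and 1.56. By annotation class, 25.8% of 570 lincRNA genes, 34.3% of 935 antisense genes and 15.0% of 1029 processed pseudogenes fell, against 39.5% of protein-coding genes. The shares that rose were 6.32%, 1.93% and 2.82%, against 3.36%, and the medians were -0.41, -0.54 and -0.28, against -0.48.

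The mitochondrially encoded mRNAs, transcribed by a polymerase other than RNA polymerase II, fell in the nuclear fraction by an amount that depends on 1 library. All 7 had differences below 0, with a median of -1.05, and mt-Nd2, mt-Nd5, mt-Nd4 and mt-Co1, subunits of complexes I and IV, fell, by 1.59, 1.13, 1.05 and 0.69 (adjusted p = 0.046, 0.030, 0.029 and 0.048). The differences of mt-Nd1, mt-Cytb and mt-Nd6 were -1.67, -0.91 and -0.74 (adjusted p = 0.053, 0.10 and 0.086). Without the 120 min library of replicate 1, in which mt-Nd1 reached 3.71 against 1.05 and 0.916 in the other two, the median was -0.78 and 2 of the 7 fell. The cytosolic median of the same 7 was -0.0079. Whether the yield of organelles in the pellets plays a part was not tested.

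**Figure D4:**
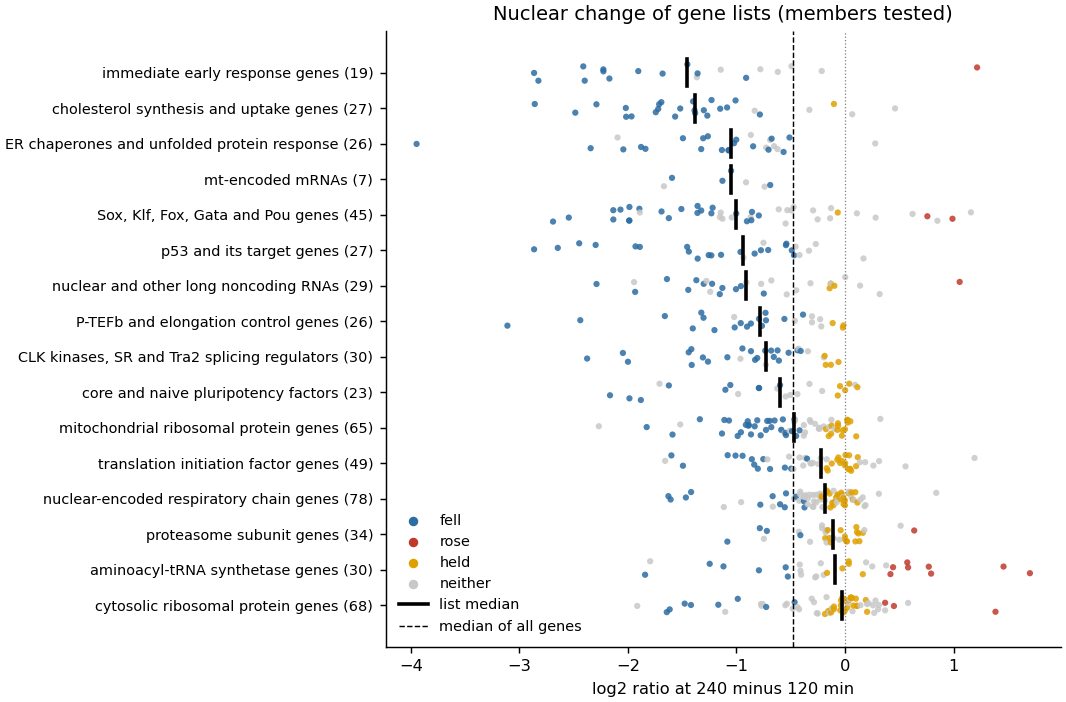
Log2 ratio at 240 minus 120 min (x axis) of each tested member of 16 gene lists (number of members in parentheses), coloured by call, with the list median as a black bar and the median of all genes, -0.48, as a dashed line. Immediate early and cholesterol genes lie lowest and ribosomal protein genes near 0. After centring of the libraries, every value moves up by the same amount and the ribosomal protein median becomes 0.47.

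Other properties of the transcripts were taken in groups of equal size, unlike the classes of span. Genes with 1 to 4 exons had a median of -0.75, and the other 4 of 5 equal groups by exon number lay between -0.49 and -0.40. By transcript length the median went from -0.35 in the shortest of 5 groups to -0.55 in the longest, and by 3′ UTR length from -0.35 to -0.55. These properties overlap with one another and with span, and the classes were not tested.

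Whether a late change differed between nucleus and cytosol was asked with the interaction of fraction and time in limma, over 11769 genes listed in all 12 libraries of both. The late difference was lower in the nucleus for 35 genes, 0.297%, and higher for 86 genes, 0.731%. Of the 35, 34 fell in the nucleus, and their median cytosolic difference was 0.08. Of the 86, 27 held in the nucleus, 22 fell and 13 rose, and their median cytosolic difference was -1.0. These calls are fragile: scaled to cytosolic ribosomal protein genes they numbered 38 and 39, scaled to mitochondrially encoded mRNAs 0 and 134, and with the harvest from which both fractions came as a block 0 and 0, although 819 lay below and 1293 above 0 at an unadjusted p under 0.05. Leaving out replicate 1 or 3 gave 0 calls on either side (unadjusted 747 and 862, and 650 and 860), and leaving out replicate 2 gave 1 lower and 0 higher (514 and 783).

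Among genes lower in the nucleus, Tmbim1, a Golgi and lysosomal membrane protein, had 0.0809, 0.0757 and 0.0602 at 120 min and 0.0155, 0.0185 and 0.0113 at 240 min in the nucleus. In the cytosol it had 1.16, 0.519 and 0.892 and then 0.814, 0.773 and 1.06, so the nuclear groups were apart and the cytosolic ones overlapped, and the nuclear minus the cytosolic difference was -2.38 ± 0.42 (SE, adjusted p = 0.039). Rab26, a GTPase of secretory vesicles, fell in the nucleus from 0.354, 0.208 and 0.249 to 0.0927, 0.0968 and 0.0812 while its cytosolic values were 1.33, 1.42 and 2.05 and then 2.21, 1.94 and 2.16 (-1.97 ± 0.30, adjusted p = 0.025). Aplp2, a relative of the amyloid precursor protein, was the one of the 35 that held in the nucleus, and it rose in the cytosol from 0.197, 0.197 and 0.0970 to 0.619, 0.757 and 0.629 (-2.08 ± 0.36, adjusted p = 0.0355). Plpp6, Carmil3 and Lrrc45 had -2.24, -2.24 and -1.61 (adjusted p = 0.048, 0.035 and 0.020).

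Among genes higher in the nucleus, Ogt (chrX:101640060-101684351), the enzyme that attaches O-linked N-acetylglucosamine to proteins, had 0.986, 0.904 and 0.797 and then 0.734, 0.643 and 0.544 in the nucleus. Its cytosolic values were 0.763, 0.879 and 0.765 and then 0.172, 0.191 and 0.149, and the nuclear minus the cytosolic difference was 1.75 ± 0.20 (adjusted p = 0.020). Azin1, an inhibitor of the antizyme that degrades ornithine decarboxylase, had overlapping nuclear values of 0.292, 0.333 and 0.370 and then 0.363, 0.298 and 0.185, and fell in the cytosol from 1.05, 0.822 and 1.14 to 0.229, 0.217 and 0.232 (1.86 ± 0.32, adjusted p = 0.035). Syt14, a synaptotagmin, fell from 0.697, 0.615 and 0.476 to 0.343, 0.297 and 0.450 in the nucleus and from 0.588, 0.617 and 0.843 to 0.0481, 0.0228 and 0.0488 in the cytosol (3.44 ± 0.43, adjusted p = 0.020). Tars2 rose in the nucleus from 0.0180, 0.0261 and 0.0427 to 0.0939, 0.0898 and 0.0823 and fell in the cytosol from 0.199, 0.333 and 0.393 to 0.0597, 0.0568 and 0.121 (3.70 ± 0.56, adjusted p = 0.025). Rasl11a, a Ras-like GTPase of the nucleolus, rose in the nucleus by 2.04 (adjusted p = 0.0030) from 0.468, 0.564 and 0.701 to 2.89, 2.00 and 2.25 with a cytosolic difference of 0.21 (1.84 ± 0.25, adjusted p = 0.020), and Mrm2, a mitochondrial rRNA methyltransferase, had 2.37 ± 0.47 (adjusted p = 0.050).

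**Figure D5:**
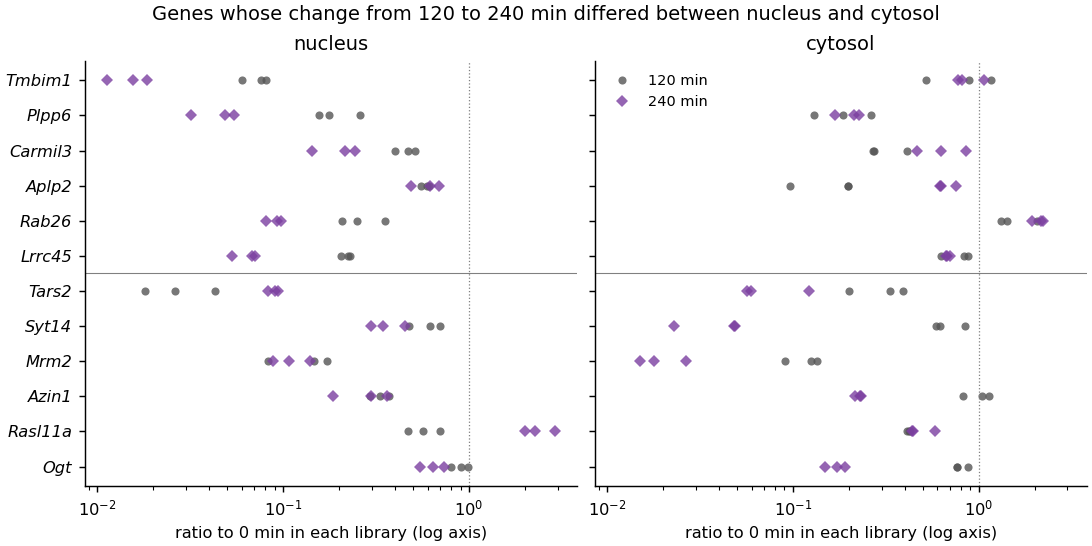
Ratio to 0 min (log axis) in the nucleus (left) and cytosol (right) of the 12 genes named from the interaction test, in each of 3 libraries at 120 min (circles) and 240 min (diamonds). Above the line, the 6 genes whose late difference was lower in the nucleus; below it, the 6 whose difference was higher. The late cytosolic values of Ogt, Azin1, Syt14, Tars2 and Mrm2 lie wholly below their earlier ones.

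Whether nuclear loss slowed, sped up or turned after 120 min was asked by setting the rate from 120 to 240 min against that from 60 to 120 min in one limma fit over 13709 genes. The median rate was -0.31 log2 units per hour earlier and -0.25 late. The late rate was below the earlier one for 82 genes, 0.598%, and above it for 81 genes, 0.591%. Of the 82, 75 had gone up before 120 min and down after it, and the 60 of them that are protein-coding had a median span of 171 kb, against 24.2 kb for all. Of the 81, 48 had gone down and then up, and 33 had gone down in both intervals. The 120 min libraries enter both rates, so this test favours genes with an extreme 120 min value. Such turns are therefore partly built into the choice of genes, and their share over all 13709 genes was not counted. Leaving out any replicate ended all of these calls, with 694, 493 and 1128 genes below and 1275, 1015 and 854 above 0 at an unadjusted p under 0.05 without replicates 1, 2 and 3, and scaled to mitochondrially encoded mRNAs they numbered 17 and 614.

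Eps8 (chr6:137477245-137654876, 178 kb), which caps actin filaments, is a plain case of a peak. It had 1.89, 1.86 and 1.91 at 60 min, 7.25, 6.63 and 7.33 at 120 min and 3.81, 3.15 and 3.47 at 240 min. The 3 times did not overlap, and the late minus the earlier rate was -2.42 ± 0.28 per hour (SE, adjusted p = 0.015). Sertad2, a cell cycle cofactor gene of 110 kb, went from 0.688, 0.697 and 0.497 through 1.24, 1.18 and 1.99 to 0.206, 0.185 and 0.181 (-2.66 ± 0.30, adjusted p = 0.015). Cacng4, a calcium channel gamma subunit, went from 0.175, 0.155 and 0.708 through 3.62, 3.29 and 2.11 to 0.122, 0.219 and 0.161 (-5.54 ± 0.73, adjusted p = 0.025). Dmrta2, a short transcription factor gene, and Dmrta2os, annotated beside it on the other strand, peaked together at 120 min with -3.02 and -2.81 (adjusted p = 0.0051 and 0.020), and Arhgef33, a guanine nucleotide exchange factor, had -2.63 (adjusted p = 0.047). Nf1 (242 kb) had -1.42 ± 0.21 (adjusted p = 0.037).

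In the other direction, Wdr93 went from 0.653, 0.867 and 0.660 at 60 min through 0.184, 0.186 and 0.169 to 0.380, 0.545 and 0.800, with a late minus earlier rate of 2.81 ± 0.34 per hour (adjusted p = 0.019). Its 120 min values stand in the same proportions between libraries as those of Idi2 and Tmem220, so they too may rest on a few reads. Lama3, a laminin chain of epithelial basement membranes and the largest rise among collagen, laminin and integrin genes, dipped to 0.445, 0.150 and 0.273 at 120 min and came back to 0.983, 1.10 and 1.40 (3.41 ± 0.53, adjusted p = 0.037). Ints10, a subunit of the Integrator complex, fell in both intervals, from 0.764, 1.00 and 1.11 to 0.0863, 0.0740 and 0.0490 and then to 0.0220, 0.0148 and 0.0338, more slowly in the second (3.00 ± 0.47, adjusted p = 0.037). Tha1, Ffar1 and Myl6 had 3.91, 3.00 and 2.68 (adjusted p = 0.037, 0.021 and 0.037).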

How the data were processed

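The authors aligned reads with STAR 2.7.6 and counted them with RSEM 1.3.3 on mm10, scaled libraries on genes with half-lives above 14 h and divided each series by its 0 min level, so the deposited values are a ratio to 0 min, although the column heading names read counts. Genes at 0 are not listed. Log2 ratios with no pseudocount were fitted with limma 3.58.1 (moderated two-sided test with a variance trend, adjusted by Benjamini-Hochberg over every gene tested) in R 4.3.3, and library medians were compared by exact permutation in scipy 1.17.1. The scripts were tested on simulated data. Symbols matched for 14200 of the 14239 genes, and positions, spans and UTRs came from GENCODE vM21 (GRCm38), a later release than the study's. Named genes were the 12 largest falls and rises with groups apart among called genes listed in all 12 nuclear libraries, predicted genes, clones and pseudogenes left out, 6 a side in the other tests, the extremes and the members nearest the median of a list, and the study's examples. Other named genes were chosen after their values were seen. Members and lists were chosen with earlier results of these data known. The libraries at 0 min were not analysed here. Alternatives covered scaling, pseudocount, gene filter, trend, blocks, time and libraries left out. A few genes that the rule names are not reported here.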

Additional observations from a re-analysis of the deposited data

Results flagged for a closer look

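The test of the difference between fractions, run without a block, picked out 35 genes with a lower and 86 with a higher late difference in the nucleus than in the cytosol. With the harvest as a block this test called 0 and 0. Of the 12 named from it, those lower in the nucleus were Tmbim1 (-2.38), Plpp6 (-2.24), Carmil3 (-2.24), Aplp2 (-2.08), Rab26 (-1.97) and Lrrc45 (-1.61), and those higher were Tars2 (3.70), Syt14 (3.44), Mrm2 (2.37), Azin1 (1.86), Rasl11a (1.84) and Ogt (1.75), each as nuclear minus cytosolic difference in log2 ratio. With 3 libraries a group, no library was tested as standing apart.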

How the results depend on the processing

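The counts depend on the scaling, the pseudocount and the libraries used. Centred on each library's median gene, 2282 genes fell and 2180 rose, nuclear minus cytosolic calls were 128 lower and 286 higher, and rate calls 251 below and 201 above 0. Scaled to mitochondrially encoded mRNAs, 349 fell, 2440 rose and 0 held, with 0 lower and 134 higher, and 17 below and 614 above. The median gene rose under that scaling, so a half-life has no meaning for it there. Scaled to ribosomal protein genes, 5105 fell, 482 rose and 39 were higher. A pseudocount of 0.1 gave 2202 held, 153 below and 422 above, and one of 1 gave 10909 held, 128 lower, 502 higher, 225 below and 936 above. Genes listed in all 48 libraries gave 133 higher and 133 above, and genes listed in at least 2 of 3 libraries 23 lower, 49 higher, 42 below and 39 above. All 12 nuclear libraries in one fit gave 309 rises and 779 held, an earlier rate from 30 min gave 210 above, and 180 min as last time gave a half-life of 124 min.

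Deviations of libraries with the same number did not go together (correlations -0.013, -0.0012 and -0.028 between nuclear times, 0.0073 to 0.066 between fractions), so the main fits took no pairs. The protocol splits each harvest into the fractions, and low correlations cannot undo that pairing. A replicate block gave 4469 falls and 403 rises, 24 lower and 69 higher, and 7 below and 6 above, and the harvest as a block 0 lower and 0 higher. With libraries left out, falls ranged from 0 to 4595, rises from 0 to 419, held genes from 18 to 1125, lower calls from 0 to 1, and higher calls and both rate calls stayed at 0.

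Of genes named in the text, these changed sign when scaled to mitochondrially encoded mRNAs: Syt14 (0.37), Mrm2 (0.87), Azin1 (0.81), Ogt (0.60), Dmrta2 (0.23), Dmrta2os (0.40), Eps8 (0.063), Myl6 (0.18), Nf1 (0.45), Tfrc (0.0018), Calr (0.018), Ftx (0.18), Lin28a (0.49), Malat1 (0.41), Nanog (0.034), Neat1 (0.086), Plk3 (0.16), Pou5f1 (1.02), mt-Co1 (0.40), mt-Cytb (0.18), mt-Nd4 (0.041) and mt-Nd6 (0.35). When centred, Mrm2 (0.28), Azin1 (0.22), Ogt (0.0070) and Pou5f1 (0.43) did. With libraries left out, the nuclear difference of Aplp2 ranged from -0.093 to 0.18, of Mrm2 from -0.70 to 0.16, of Azin1 from -0.58 to 0.077 and of Pou5f1 from -0.18 to 0.020. The causes were not tested.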

Other observations

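Other gene groups lay between those described. Of 35 mitotic regulators 21 fell, 0 rose and 5 held, with a median difference of -0.64, of 30 kinesin genes 16 fell and 2 rose (-0.68), and of 37 Usp and Otud deubiquitinase genes 20 fell and 1 rose (-0.59). Of 14 nonsense-mediated decay factors 9 fell and 0 rose (-0.60), of 15 BCL2 family genes 7 fell and 1 rose (-0.53), and of 24 Polr subunit genes of the RNA polymerases 11 fell, 0 rose and 5 held (-0.45). Solute carrier genes, which encode membrane transporters, had 73 falls and 9 rises among 180 (-0.56). Beside the 36.2% of all genes that fell stood 5 of 20 Hnrnp genes (-0.19), 1 of 14 small nucleolar RNA host genes (-0.26) and 2 of 26 replication-dependent histone genes (-0.39), whose mRNAs mostly lack a polyA tail. The small nucleolar RNA host genes were already low at 120 min, with library medians of -5.53 to -4.99, log2 to 0 min. The differences from all genes were not tested. Of 36 collagen, laminin and integrin genes 8 fell and 5 rose (-0.16). After centring of the libraries the medians of the last 4 groups and that of the Polr genes were above 0, and scaled to mitochondrially encoded mRNAs all of these medians were.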
